A study of Rattus norvegicus with 12 samples.

Results

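The interaction between body type and rosiglitazone was examined in kidney RNA from male Zucker rats: for each gene, the rosiglitazone effect in obese rats minus the rosiglitazone effect in lean rats. It used every array of the study, 12 of 12, with 3 arrays in each of 4 groups that were set by the array titles. The groups were lean rats on ground chow (lean controls), lean rats on chow with rosiglitazone at 3 mg per kg of body weight, obese rats on chow (obese controls) and obese rats on chow with the same dose. Diets were given for 12 weeks, and the 12 arrays match the 6 lean and 6 obese rats of the design in number. The labels describe the animals as a diabetes model and give neither their age nor the allele that makes them obese. The tissue is called kidney, with no region named.

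Rosiglitazone is a thiazolidinedione that activates PPARgamma, a nuclear receptor which pairs with RXR on DNA and raises genes of fatty acid uptake, storage and handling, above all in fat cells. In the kidney PPARgamma is best known from the collecting duct and from blood vessels, and thiazolidinediones are known for causing sodium and water retention. Obese Zucker rats lack a working leptin receptor and become obese, insulin resistant and dyslipidaemic, and their kidneys are later damaged. An interaction above 0 means that the drug effect on the log2 scale was more positive in obese than in lean rats, and one below 0 that it was more negative.

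Promoters are shown for a pair of genes because one, Inmt, had the smallest interaction p and the other, Slc22a13, had the smallest adjusted p for rosiglitazone in obese rats. Inmt codes for indolethylamine N-methyltransferase, and Slc22a13 for an organic anion transporter of the proximal tubule. Each sequence is from RefSeq on GRCr8 and runs 5′ to 3′ on the gene's strand, from 250 bases before to 50 bases after the start of the gene. Capitals mark the 6-base unit AGGTCA, or TGACCT where it lies on the other strand, which nuclear receptors including PPARgamma with RXR bind. Inmt lies on the minus strand at chr4:85652706-85653005, and Slc22a13 on the minus strand at chr8:127811701-127812000.
Inmt: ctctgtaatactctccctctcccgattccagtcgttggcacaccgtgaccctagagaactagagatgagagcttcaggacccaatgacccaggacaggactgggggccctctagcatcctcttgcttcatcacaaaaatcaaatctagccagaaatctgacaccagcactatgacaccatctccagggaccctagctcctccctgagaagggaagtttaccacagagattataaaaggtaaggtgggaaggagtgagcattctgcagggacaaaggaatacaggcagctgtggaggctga
Slc22a13: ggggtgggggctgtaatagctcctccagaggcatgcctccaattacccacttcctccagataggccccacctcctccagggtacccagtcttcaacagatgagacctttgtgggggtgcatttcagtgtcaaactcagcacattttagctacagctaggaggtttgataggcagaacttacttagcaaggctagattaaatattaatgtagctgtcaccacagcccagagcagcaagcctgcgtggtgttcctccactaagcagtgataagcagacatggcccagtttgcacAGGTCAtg
The unit was found at base 293 of the Slc22a13 window, after the gene start, and not in the Inmt window. It stood in 3 of the 20 promoters found for 18 of the 24 genes described first here, those of Apmap, Slc22a13 and Ube3al1, and in 16.2% of all 33469 promoters in the table. A direct repeat of the unit with 1 base between its copies, the 13-base element that PPARgamma binds with RXR, searched on both strands and overlapping the unit, stood in 0 of the 20 and in 18 of the 33469 (0.0538%). These counts describe letters in a short window and were not tested.

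No gene passed the test of the interaction. Limma, with Benjamini-Hochberg adjustment over 18625 probe sets, called 0 (0% of those tested) at an adjusted p under 0.05, against 802 (4.31%) at an unadjusted p under 0.05, of which 414 (2.22%) were above 0 and 388 (2.08%) below. If no probe set had an interaction, about 931 would be expected at that unadjusted threshold, more than the 802 found. The smallest adjusted p was 0.0546, for Inmt, and 4 probe sets were under 0.25. The same model called 1 probe set (0.00537%) for rosiglitazone in lean rats, Inmt, and 13 (0.0698%) in obese rats, 9 of them higher (0.0483%) and 4 lower (0.0215%), with 0 shared. A gene called in one body type and not in the other is not thereby shown to differ, so each is given below with its interaction. Without the second lean control the interaction had 4 calls, Inmt, Fasn, Car3 and Scd, and the lean effect 5.

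The precision of the interaction was that of 3 arrays a group. Its standard error had a median of 0.23 on the log2 scale, against 0.17 for the effect in one body type, and the 95% confidence interval reached a median of 0.50 to either side. For 14997 probe sets (80.5%) the whole interval lay between −1 and 1, so that the fold change by the drug differed between body types by less than 2-fold within that interval. An interaction larger than 1 in size was measured in 136 probe sets (0.73%). Across the 18625 probe sets the lean and obese effects, which share no array, had a Pearson r of 0.04 and a Spearman rho of 0.00. That correlation is a description across probe sets that are not independent of each other. At an unadjusted p under 0.05 the lean effect had 4.79% of probe sets and the obese effect 4.92%, near the share expected without any effect. Most of the values correlated are therefore largely noise, and an r near 0 does not show that the responses of the body types are unrelated.

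**Figure D1:**
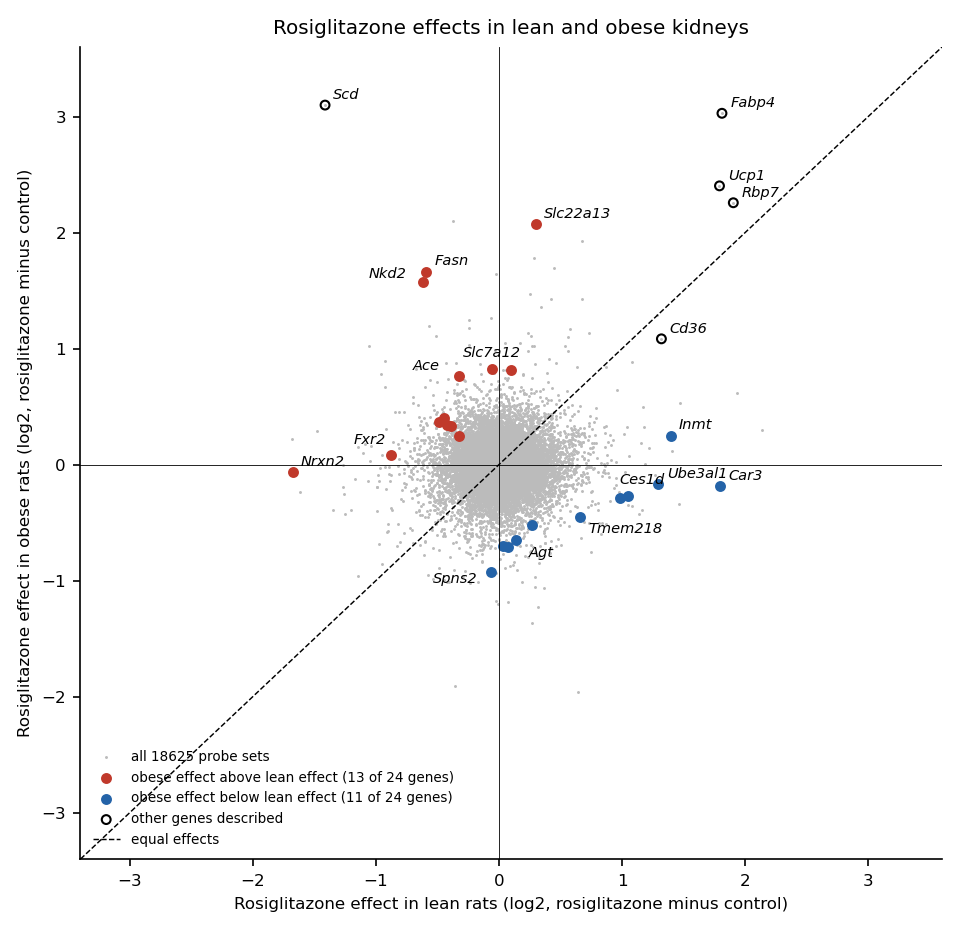
Rosiglitazone effect in obese rats (vertical axis) against that in lean rats (horizontal axis), each as a difference of mean log2(signal + 16), for the 18625 probe sets tested, with named genes marked; the diagonal is an interaction of 0. Inmt lies at 1.39 in lean and 0.25 in obese rats, below the diagonal, and Nkd2 at −0.62 and 1.57, above it.

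The 24 genes of smallest interaction p are described next; none passed the test, and their adjusted p ran from 0.0546 to 0.741. The interaction was above 0 in 13 and below 0 in 11, and its size ran from 0.57 to 2.26. Lean and obese effects had opposite signs in 19 of the 24. The lean groups did not overlap in 15 and the obese groups in 19, whereas 8.54% and 11.9% of all probe sets had such groups. In 9 of the 24 both pairs of groups were apart in opposite directions, as were 0.424% of all probe sets. These genes were picked from the same arrays by the interaction itself, so the counts describe the pick and are no support for it. In all 13 genes with an interaction above 0 the obese controls had a lower mean log2 value than the lean controls (by under 0.01 in Ccn2), and in 8 of the 11 below 0 they had a higher one, values that share the control arrays with the interaction.

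Inmt, which methylates tryptamine and related amines, had the smallest interaction p of all probe sets tested. Its signal (probe set 1373975_at) was 1936, 2389 and 1747 in lean controls, 5189, 5403 and 5309 in lean rats on rosiglitazone, 6672, 5621 and 5694 in obese controls and 6747, 7573 and 7049 in obese rats on rosiglitazone. The lean controls stood apart from the other 9 arrays, and the obese controls were already above the treated lean rats. Inmt rose 2.63-fold in lean rats (log2 effect 1.39, adjusted p = 6.5e-05), while the obese means differed by 1.19-fold (0.25, adjusted p = 0.975). The interaction was −1.14 ± 0.15 (SE, 95% interval −1.47 to −0.81, adjusted p = 0.0546). It missed the threshold in the model used here and passed it in 5 of 23 alternatives, including quantile normalization (0.0171) and the fit without the second lean control (0.00559), within a range of 0.00559 to 0.553. Among the 5 was the fit within the lower spike-in class described below, which had only 1 array in each lean group. Obese controls exceeded lean controls by 1.57, and on rosiglitazone the body types differed by 0.42. In RNA of whole kidney, a different number of cells of a type and a different amount of RNA per cell cannot be told apart, here and below.

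**Figure D2:**
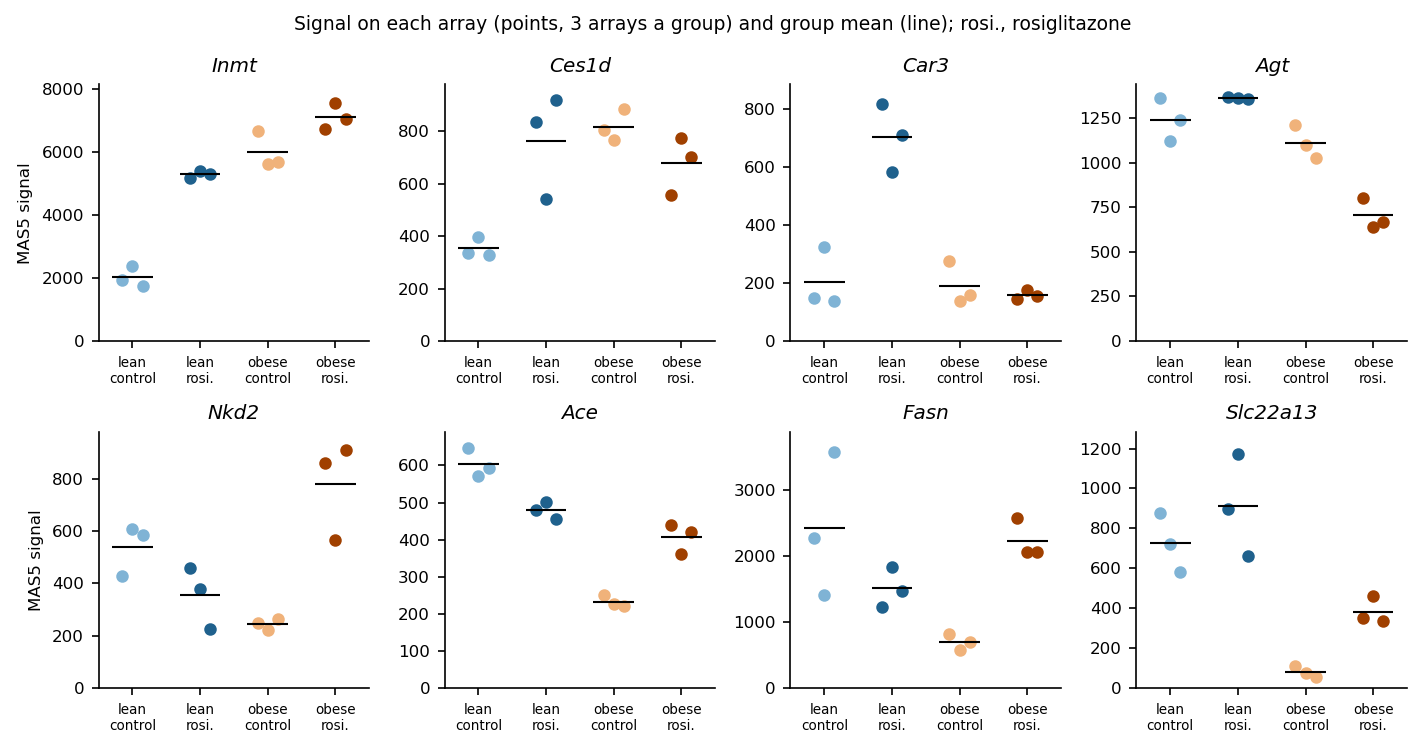
MAS5 signal (vertical axis, from 0) on each of the 12 arrays, 3 points a group, for 8 genes, with the group mean as a line. Inmt, Ces1d and Car3 are higher in lean rats on rosiglitazone than in lean controls, Agt is lowest in obese rats on rosiglitazone, and Nkd2, Ace, Fasn and Slc22a13 are lowest in obese controls and higher in obese rats on rosiglitazone.

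Other genes with an interaction below 0 had higher means with rosiglitazone in lean rats, in differences that did not pass the test. Ces1d, a carboxylesterase that splits ester bonds of lipids and drugs, had signals of 337, 398 and 328 in lean controls, 835, 541 and 919.9 in lean rats on rosiglitazone, 804, 767 and 884 in obese controls and 559, 777 and 703 in obese rats on rosiglitazone. Lean controls were below every other array, as for Inmt, and the obese groups overlapped. The Ces1d interaction was −1.32 ± 0.25 (95% interval −1.87 to −0.77, adjusted p = 0.344). Car3, the carbonic anhydrase of fat and muscle, had signals of 148, 324 and 139 in lean controls, 817, 582 and 711 in lean rats on rosiglitazone, 275, 139 and 159 in obese controls and 145, 176 and 157 in obese rats on rosiglitazone. All 3 treated lean rats were above the other 9 arrays, and the obese groups overlapped. The interaction of this Car3 probe set was −1.98 ± 0.41 (adjusted p = 0.435), and that of a brighter one, 1367896_at, was −1.84 ± 0.46 (adjusted p = 0.832).

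Cryaa, Ube3al1 and Tmem218 also had higher signals in treated than in control lean rats. Cryaa, the lens chaperone alpha A-crystallin, had signals of 103, 113 and 98.8 in lean controls, 211, 177 and 293 in lean rats on rosiglitazone, 192, 180.0 and 232 in obese controls and 168, 160.1 and 156 in obese rats on rosiglitazone. The lean controls were below 115.7, the highest signal of any of 15 bacterial control probe sets, taken here as background, so the lean difference is only partly measured. Its fitted interaction was −1.27 ± 0.29 (adjusted p = 0.559), and −1.14 with those signals set to background. Ube3al1 had signals of 252, 178 and 379 in lean controls, 653, 806 and 535 in lean rats on rosiglitazone, 504, 461 and 333 in obese controls and 301, 447 and 398 in obese rats on rosiglitazone. The lean groups did not overlap and the obese groups did, and the interaction was −1.46 ± 0.35 (adjusted p = 0.682). Tmem218, a small membrane protein of cilia, had signals of 507, 512 and 614 in lean controls, 693, 829 and 1131 in lean rats on rosiglitazone, 849.8, 813 and 933 in obese controls and 516, 704 and 683 in obese rats on rosiglitazone. For Tmem218 the drug went with higher signal in lean and lower signal in obese rats with no overlap in either, and the interaction was −1.11 ± 0.24 (adjusted p = 0.459).

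Among the 24, those with an interaction above 0 that were also called higher in obese rats were Nkd2, Ace, Fasn, Slc22a13, Slc7a12 and Fabp5. Nkd2, which binds Dishevelled and damps Wnt signalling, had signals of 427, 607 and 586 in lean controls, 460.0, 381 and 228 in lean rats on rosiglitazone, 250.0, 223 and 266 in obese controls and 859, 565 and 910.3 in obese rats on rosiglitazone. The obese groups were far apart, whereas the lean groups overlapped and the treated lean mean was the lower one. Nkd2 rose 2.98-fold in obese rats (adjusted p = 0.0263), its lean effect was −0.62 (adjusted p = 0.981), and the interaction was 2.19 ± 0.34 (95% interval 1.47 to 2.91, adjusted p = 0.124). Fasn, the enzyme that makes palmitate, had signals of 2266, 1416 and 3578 in lean controls, 1230.1, 1829 and 1469.9 in lean rats on rosiglitazone, 822, 573 and 698 in obese controls and 2577, 2067 and 2055 in obese rats on rosiglitazone. Obese controls were below all other arrays, and the treated obese rats lay within the range of the lean controls. Fasn rose in obese rats by 1.66 on the log2 scale (adjusted p = 0.0486), a call that held in 7 of 23 alternatives, with an interaction of 2.26 ± 0.38 (adjusted p = 0.235). The obese call of Nkd2 held in 14 of 23 and was lost when any 1 obese control was left out. That of Fasn was lost when any 1 obese array was left out. A dimmer Fasn probe set, 1367707_at, had an interaction of 1.28 ± 0.40.

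Slc22a13, whose promoter is printed above, had signals of 875, 724 and 584 in lean controls, 899.7, 1172 and 659.7 in lean rats on rosiglitazone, 109, 76.3 and 55.9 in obese controls and 354, 459.9 and 335 in obese rats on rosiglitazone. Obese controls were below background, and the treated obese rats were above background and below all 6 lean rats. Slc22a13 rose in obese rats (fitted effect 2.07, adjusted p = 0.00889), against 0.30 in lean rats (adjusted p = 0.981), and the fitted interaction was 1.77 ± 0.34 (adjusted p = 0.344). With signals below background set to it, the obese effect was at least 1.59 and the interaction at least 1.29. The obese call held in 20 of 23 alternatives. Slc7a12, an amino acid transporter, had signals of 8277, 7757 and 5948 in lean controls, 7078, 7455 and 6435 in lean rats on rosiglitazone, 1890.2, 2225 and 2436 in obese controls and 3951, 3859.6 and 3766 in obese rats on rosiglitazone. It rose 1.77-fold in obese rats (adjusted p = 0.022) and the lean groups overlapped, with an interaction of 0.88 ± 0.17 (adjusted p = 0.344). Fabp5, a fatty acid binding protein and PPAR target, had signals of 4208, 4207 and 4107 in lean controls, 4554, 4925 and 3991 in lean rats on rosiglitazone, 2255, 2722 and 2433 in obese controls and 5104, 3864 and 4185 in obese rats on rosiglitazone. Obese controls were the lowest 3 arrays, and the other 3 groups overlapped. Fabp5 rose 1.76-fold in obese rats (adjusted p = 0.0217), with an interaction of 0.72 ± 0.16 (adjusted p = 0.459).

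The renin angiotensin system held a gene of each sign. Ace, the enzyme that makes angiotensin II and sits on the proximal tubule brush border and on endothelium, had signals of 648, 572 and 594 in lean controls, 479, 502 and 456 in lean rats on rosiglitazone, 251, 226 and 221 in obese controls and 441, 361 and 420.0 in obese rats on rosiglitazone. The 4 groups did not overlap: Ace was highest in lean controls, lower in treated lean rats, lower again in treated obese rats and lowest in obese controls. Ace rose in obese rats by 0.76 (adjusted p = 0.0486), a call that held in 3 of 23 alternatives and in 0 of the 12 that left out an array, its lean effect was −0.33 (adjusted p = 0.981), and the interaction was 1.09 ± 0.18 (95% interval 0.71 to 1.48, adjusted p = 0.173). Agt, the precursor angiotensinogen, had signals of 1359.9, 1119 and 1241 in lean controls, 1366, 1364 and 1358 in lean rats on rosiglitazone, 1212, 1101 and 1026 in obese controls and 804, 642 and 670.2 in obese rats on rosiglitazone. Treated obese rats were the lowest 3 arrays, and the lean groups overlapped. The Agt interaction was −0.79 ± 0.16 (adjusted p = 0.398). Of 10 measured genes of the system 0 were called, and beside Ace and Agt none had an unadjusted p under 0.05; the median interaction was −0.03, against 0.01 over 10524 genes.

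Further genes with an interaction below 0 had lower means with rosiglitazone in obese rats. Spns2, which exports sphingosine 1-phosphate, had signals of 633, 742 and 819 in lean controls, 756, 749.6 and 590.0 in lean rats on rosiglitazone, 1273, 1158 and 1077 in obese controls and 607, 562 and 650.5 in obese rats on rosiglitazone. Obese controls were the highest 3 arrays, and the treated obese rats overlapped the lean rats at their low end. Spns2 fell in obese rats by 0.93 on the log2 scale (adjusted p = 0.022), with an interaction of −0.86 ± 0.19 (adjusted p = 0.459) and of −1.05 ± 0.27 for its other probe set. Ccng1, cyclin G1 of the p53 response, had signals of 2696, 2154 and 2439.6 in lean controls, 2468, 2125 and 2889.9 in lean rats on rosiglitazone, 4210.2, 4333 and 3656 in obese controls and 2604, 2195 and 2704 in obese rats on rosiglitazone. The obese controls were again the highest 3, and the other groups overlapped, with an interaction of −0.73 ± 0.18 (adjusted p = 0.701). Apmap, an adipocyte plasma membrane associated protein, had signals of 6474, 5566 and 5131 in lean controls, 6659, 5249 and 6122 in lean rats on rosiglitazone, 5583, 5849 and 4953 in obese controls and 2690.2, 3977 and 3418 in obese rats on rosiglitazone. Here the treated obese rats were the lowest 3, and the interaction was −0.78 ± 0.19 (adjusted p = 0.741). For Map4k2, a kinase of the JNK pathway, the interaction was −0.79 ± 0.16 (adjusted p = 0.427), but its other probe set gave −0.04 ± 0.45.

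The remaining 7 of the 24 had an interaction above 0 with a lower mean in treated than in control lean rats. Fxr2, an RNA-binding relative of the fragile X protein, had signals of 968, 1148 and 1066 in lean controls, 549.7, 573 and 588 in lean rats on rosiglitazone, 1168, 825 and 946 in obese controls and 947, 931 and 1235 in obese rats on rosiglitazone. Treated lean rats were the lowest 3 arrays, with an interaction of 0.96 ± 0.20 (adjusted p = 0.427). Ccn2, connective tissue growth factor, a matrix-inducing signal, had signals of 2923, 2348 and 2658 in lean controls, 2209.7, 1938 and 1686 in lean rats on rosiglitazone, 2977, 2829 and 2161 in obese controls and 3653, 3443 and 3341 in obese rats on rosiglitazone. Lean groups were apart downward and obese groups apart upward, and the interaction was 0.84 ± 0.18 (adjusted p = 0.459). Nrxn2, a neurexin, had signals of 211, 288 and 182 in lean controls, 45.6, 42.2 and 100.3 in lean rats on rosiglitazone, 214, 212 and 192 in obese controls and 206, 179.5 and 205 in obese rats on rosiglitazone, so that its treated lean rats were below background and its fitted interaction of 1.62 has a lower bound of 0.80 with those signals set to background. Tln1, talin 1, which ties integrins to actin, had an interaction of 0.72 ± 0.17 (adjusted p = 0.559). Rnpc3, a protein of the minor spliceosome, had one of 0.85 ± 0.20 (adjusted p = 0.559). Agap1, a regulator of Arf proteins, and Galm, which interconverts forms of galactose, disagreed between probe sets: Agap1 gave 0.76 and −0.01, and Galm gave 0.57 and 0.15.

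**Figure D3:**
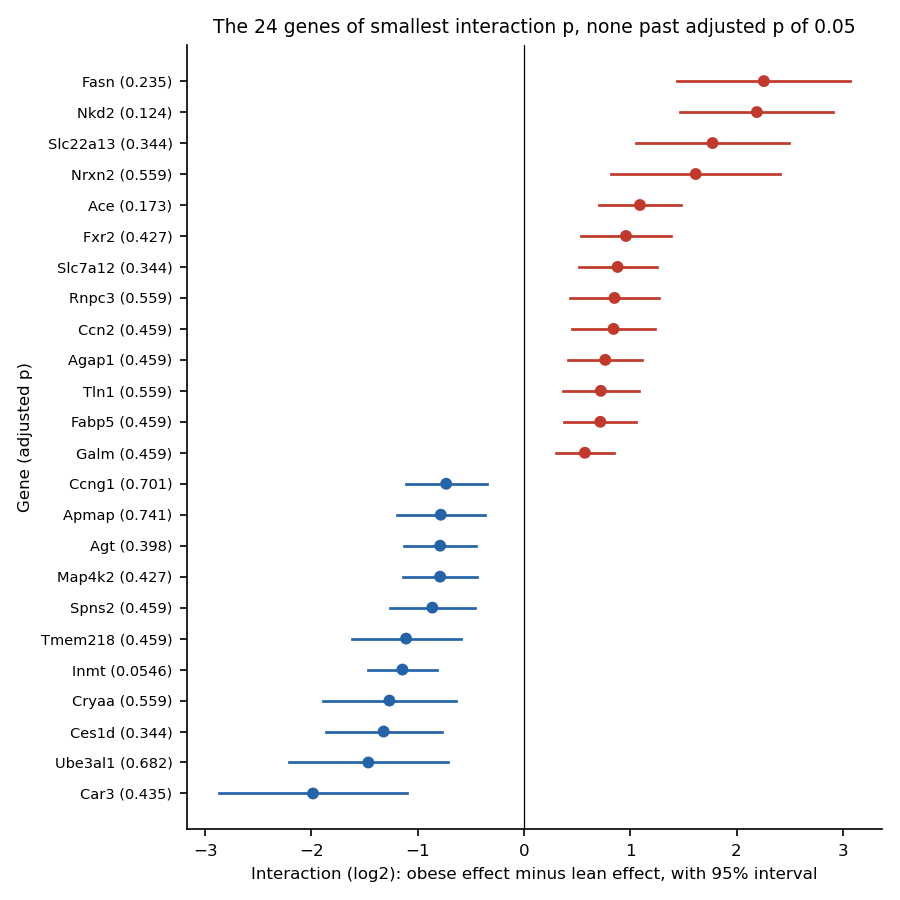
Interaction (horizontal axis, difference of log2 effects, obese minus lean) with its 95% confidence interval for the 24 genes of smallest p; the adjusted p stands beside each. All 24 intervals are unadjusted and exclude 0 because the genes were chosen by p, and no adjusted p is under 0.05.

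Of the genes called in obese rats, several had a lean effect in the same direction. Fabp4, a fatty acid binding protein of fat cells and capillaries and a PPARgamma target, had signals of 1068, 1065 and 2408 in lean controls, 4343, 7256 and 3864 in lean rats on rosiglitazone, 216, 502 and 492 in obese controls and 4111, 2862 and 2776 in obese rats on rosiglitazone. Treated rats were above controls in both body types without overlap. On the log2 scale Fabp4 rose in obese rats by 3.03 (adjusted p = 0.0185), its lean effect was 1.81 (adjusted p = 0.293), and the interaction was 1.22 ± 0.52 (95% interval 0.09 to 2.34, adjusted p = 0.992). Without the log the interaction turned to −794 signal units. Rbp7, a retinol binding protein of capillary endothelium and fat, had signals of 91.6, 119.6 and 98.6 in lean controls, 566, 449 and 308 in lean rats on rosiglitazone, 45.1, 16.5 and 66.7 in obese controls and 326, 185 and 246 in obese rats on rosiglitazone. Obese controls were below background, lean controls at or near it, and treated rats above it in both body types. Rbp7 rose in obese rats (adjusted p = 0.022). With signals below background set to it, the effect was at least 1.74 in lean and at least 0.99 in obese rats. Since each effect has only a lower bound, the size and sign of the interaction could not be measured; the fitted value was 0.35 ± 0.47, and −0.02 without the second obese control.

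Tro, trophinin, rose in obese rats by 1.02 (adjusted p = 0.022), with an interaction of 0.76 ± 0.21 (adjusted p = 0.987). Its obese controls, at 307, 284 and 336, were the lowest 3 arrays. Cotl1, a coactosin-like protein that binds actin, fell in obese rats (effect −0.76, adjusted p = 0.0313), with an interaction of −0.49 ± 0.17 (adjusted p = 0.992). The 2 unnamed probe sets that fell, 1368191_a_at and 1397500_x_at, had interactions of −0.86 and −0.55. The obese calls rest on few arrays: 0 of the 13 remained without the second obese control or without the first treated obese rat, 1 without the third treated obese rat, and 2 without the first or the third obese control. Across the 13, the number of alternatives that kept the call ran from 3 (Ace) to 20 (Slc22a13) of 23; Rbp7, tested in 17, kept it in 11. Some of these alternatives left out a lean array, which changes the estimate of spread but not the obese difference itself.

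Cd36 and Pparg show how closely a like response could be measured. Cd36, the fatty acid translocase and a PPARgamma target, had signals of 469, 259.6 and 372 in lean controls, 1030.3, 1034 and 718 in lean rats on rosiglitazone, 300.4, 419 and 424 in obese controls and 746, 941 and 776 in obese rats on rosiglitazone. Treated rats were above controls in both body types, by 1.32 in lean and 1.08 in obese rats, neither of which passed the test. The Cd36 interaction was −0.24 ± 0.30, with a 95% interval of −0.87 to 0.40. For Pparg itself, the drug's receptor, the interaction was −0.06 ± 0.31, with an interval of −0.71 to 0.60. Sgk1, a kinase that raises sodium channel activity in the distal nephron, had signals of 4584, 3305 and 3722 in lean controls, 3774, 3301 and 2547 in lean rats on rosiglitazone, 5563, 4976 and 4728 in obese controls and 7117, 6505 and 6302 in obese rats on rosiglitazone. Obese groups were apart and lean groups overlapped, and the interaction was 0.66 ± 0.20 (adjusted p = 0.992).

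Gene lists were read as counts beside all genes: over 10524 genes the median interaction was 0.01, 51.3% were above 0 and 4.60% had an unadjusted p under 0.05, and 0 members were called in each of the 32 lists. Of 33 genes listed for fatty acid oxidation and ketone formation 27 were below 0, 8 with an unadjusted p under 0.05, and the median was −0.20 (median effect 0.07 in lean and −0.11 in obese rats). Not all of the 33 are enzymes, and the 8 include the carrier Slc25a20 and Cidea, which is also listed as an adipocyte marker. The median was −0.11 without the first treated obese rat, and stayed below 0 in all 22 alternatives on the log2 scale. Slc25a20, the carnitine carrier of mitochondria, had signals of 976, 956 and 826 in lean controls, 1042, 1158 and 974 in lean rats on rosiglitazone, 1011, 1000.3 and 1048 in obese controls and 704, 861 and 816 in obese rats on rosiglitazone. Treated lean rats were above the lean controls or level with the highest, treated obese rats were below the obese controls, and the interaction was −0.56 ± 0.16 (adjusted p = 0.987). Acadl and Eci2, enzymes of the same pathway, had interactions of −0.35 and −0.43.

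Of 22 genes of fatty acid synthesis 14 were above 0, 6 of them with an unadjusted p under 0.05 against 1 below. The median was 0.16, and ran from 0.12 to 0.24 with 1 array left out, highest without the second lean control. The 6 include Thrsp, which is also listed as an adipocyte marker. Scd, which puts the double bond into oleate, had the highest interaction of any gene at 4.51 ± 1.25 (adjusted p = 0.992). Its signals were 1383, 149.5 and 4063 in lean controls, 453, 582 and 163 in lean rats on rosiglitazone, 115, 166 and 136 in obese controls and 1184, 1252 and 1492 in obese rats on rosiglitazone. The obese groups were far apart, while the lean controls held both the highest of the 12 arrays and one as low as the obese controls. Acss1, of acetate activation, was the member below 0 with an unadjusted p under 0.05, at −0.40.

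**Figure D4:**
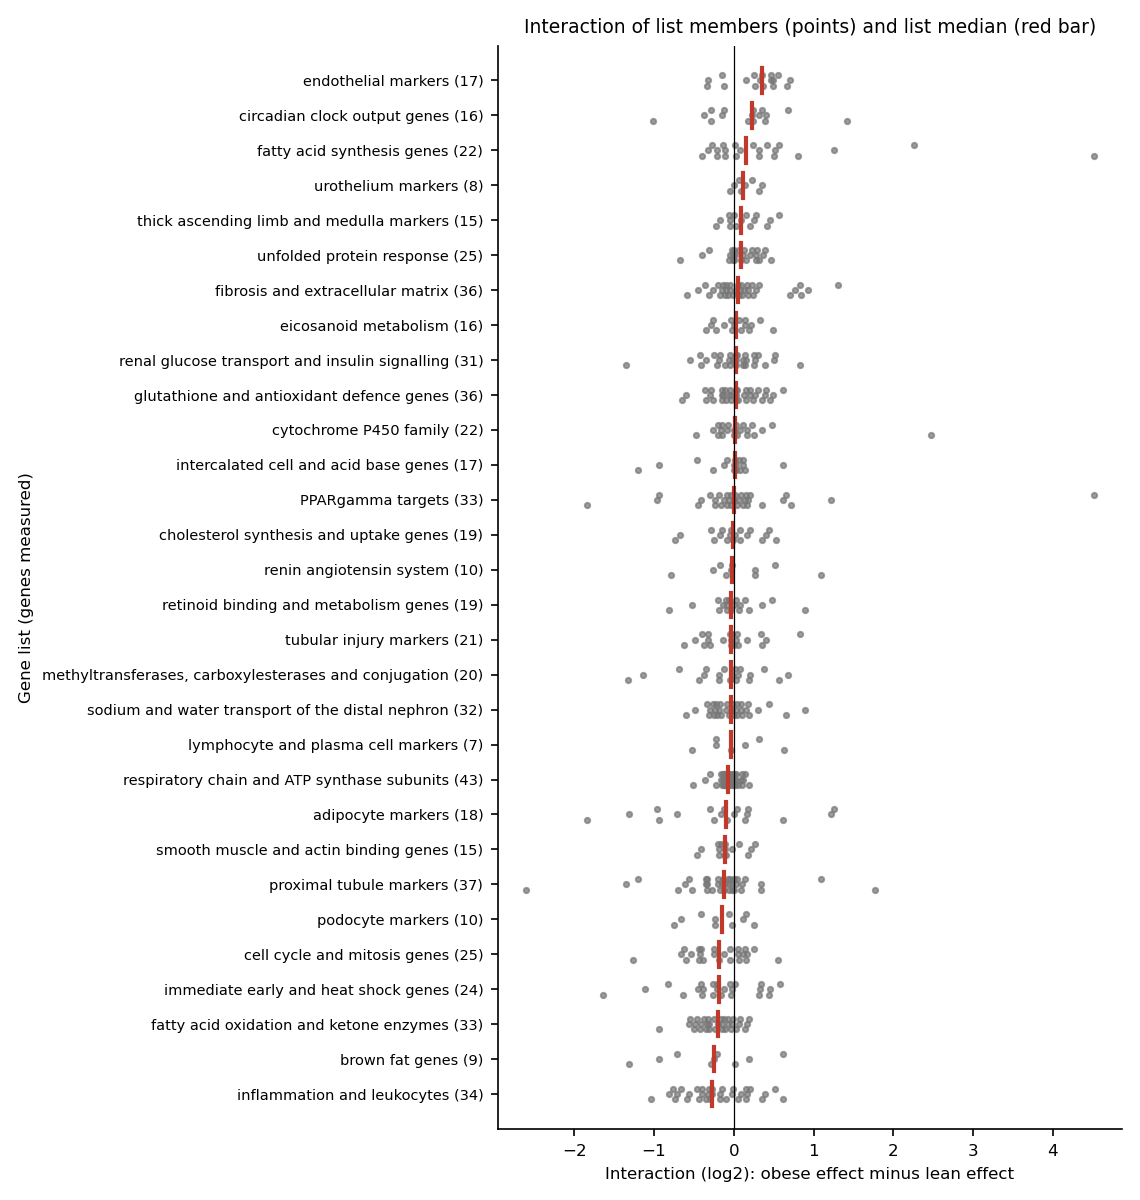
Interaction of every measured member (points) and the median (red bar) for the lists with at least 5 measured genes, on a horizontal log2 axis (obese effect minus lean effect). Members of fatty acid oxidation lie mostly left of 0 and endothelial markers mostly right of it, and no member of any list passed the test.

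Markers of cell types other than tubule cells also varied across the groups. Of 17 endothelial markers 13 were above 0, with a median of 0.35 (0.20 without the first obese control), and Eng and Plvap, proteins of capillary walls, had interactions of 0.67 and 0.70 (adjusted p = 0.992 for each). The 13 include Rbp7, whose fitted value is that median of 0.35 and whose interaction could not be measured in size or sign, as described above. The summed signal of the 17 was 16442 to 17318 in lean controls, 15935 to 18350.1 in treated lean rats, 12743 to 18892 in obese controls and 18909.9 to 20553 in treated obese rats. Treated obese rats were thus above all other arrays in summed endothelial signal, by a small margin over 1 obese control. Of 34 genes of inflammation and leukocytes 24 were below 0, and the 4 with an unadjusted p under 0.05 included RT1-Ba and Cd74 of antigen presentation and complement C3, at −0.81, −0.33 and −0.76. Over the alternatives on the log2 scale the RT1-Ba value ran from −1.01 to −0.09. An RT1-Ba probe set with a group below background, 1377334_at, gave 0.13 with signals below background set to it. Over the 34 genes the median interaction was −0.27. The median shrank to −0.04 without the second obese control, −0.10 without the first lean control, −0.16 without the third treated lean rat and −0.17 without the second treated obese rat. The summed signal of the 34 was 35469 to 45724 in obese controls and 30661 to 32072 in treated obese rats, with lean rats between 25656 and 33142.

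All 18 measured adipocyte markers had a lean effect above 0 and 17 an obese effect above 0, against 4915 and 5178 of all 10524 genes. In obese controls 3 of the 18 had a mean below background, Cox8b and Ucp1 among them, so their obese effects were not fully measured. The interaction had a median of −0.10, which ran from −0.20 to −0.01 with 1 array left out and was 0.03 with the 60th percentile filter. At an unadjusted p under 0.05, 2 were higher and 4 lower. Plin1, the coat protein of fat droplets, Cidea, of droplet growth, and Cox8b, a respiratory subunit of brown fat and muscle, had fitted interactions of −0.96, −0.94 and −1.32. Cox8b was 387, 169 and 593 in lean controls, 1028, 2179 and 1079.6 in lean rats on rosiglitazone, 31.2, 32.0 and 24.7 in obese controls and 31.6, 49.3 and 90.8 in obese rats on rosiglitazone. Cox8b was at or below background in all 6 obese rats, so that its obese effect was not measured, and its lean groups were apart. Ucp1, the uncoupler of brown fat, was 803, 632 and 894 in lean controls, 2357, 5435 and 1535 in lean rats on rosiglitazone, 32.8, 6.87 and 4.11 in obese controls and 79.1, 132 and 219.8 in obese rats on rosiglitazone, so that the obese controls were far below background and the interaction of 0.61 turned to −0.37 when 64 in place of 16 was added before the log. The summed adipocyte signal was 28667 to 31130.2 in lean controls, 35594 to 55692 in treated lean rats, 18739.6 to 19980.5 in obese controls and 24199 to 27603 in treated obese rats, and its part in the results for Car3, Fasn, Fabp4, Cd36 and Apmap was not tested. Pck1 and Aqp7 are also in the list of proximal tubule markers, so the sum does not measure fat cells alone.

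Red cell genes differed between the groups as well. Hbb, beta globin, had signals of 4603, 9121 and 5458 in lean controls, 3066, 5172 and 2094 in lean rats on rosiglitazone, 5591, 7342 and 5064 in obese controls and 11766, 10536 and 6793 in obese rats on rosiglitazone. The lowest 2 arrays were treated lean rats and the highest 2 treated obese rats, and the interaction was 1.60 ± 0.45 (adjusted p = 0.992). Alas2, of haem synthesis in red cell precursors, had one of 0.91 ± 0.37. The summed signal of the 3 red cell genes measured, of 13 in the list, was 7013 to 11368 in lean controls, 4187 to 7776 in treated lean rats, 7025 to 9702 in obese controls and 8881 to 14617 in treated obese rats. The third gene, Slc4a1, had an interaction of 0.06 and is also in the list of intercalated cell genes, so the sum does not measure red cells alone. The part of this sum in the endothelial and other results was not tested.

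Proximal tubule markers were mostly below 0, in 27 of 37, with a median of −0.12 (−0.06 without the first obese control or the first treated lean rat, −0.08 without the third lean control); beside Ace and Slc22a13 above 0, 5 members below 0 had an unadjusted p under 0.05. Among these was Slc13a1, the sulfate transporter, with signals of 613, 794 and 529 in lean controls, 682, 476 and 780.3 in lean rats on rosiglitazone, 1134, 937 and 716 in obese controls and 259, 496 and 449 in obese rats on rosiglitazone. The obese groups did not overlap and the lean groups did, and the interaction was −1.20 ± 0.36 (adjusted p = 0.992). Among methyltransferases, carboxylesterases and conjugating enzymes, the list that holds Inmt and Ces1d, 11 of 20 were below 0 and the median was −0.03, with Acsm3, which activates medium-chain acids, at −0.69. The list of PPARgamma targets showed no common direction, with 17 of 33 above 0, 4 higher and 3 lower at an unadjusted p under 0.05, and a median of 0.01. Of 36 genes of fibrosis and matrix 20 (55.6%) were above 0, near the 51.3% of all genes, and 16 below. Their median was 0.06, and ran from −0.08 to 0.19 with 1 array left out. The 3 with an unadjusted p under 0.05 were Ccn2, Pamr1 and Thbs2, at 0.84, 0.93 and 0.77, and the lowest member was Ccn1, at −0.59. Of 25 cell cycle genes 16 were below 0, led by Top2a (−1.26) and Kif11 (−0.60) of mitosis. The clock genes Cry1 and Nr1d1 had interactions of 1.42 and −1.01, opposite in sign, and the labels used here give no time of day for the kidneys.

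Umod, made by the thick ascending limb, was between 16369 and 23092 on all 12 arrays. Array quality varied little between groups in most measures. The median signal was 204 to 239, the 3′ to 5′ ratio of GAPDH was 1.07 to 1.32 and that of actin 1.57 to 2.40. The cre control transcript, a spike-in added to each sample before hybridization, fell into a higher class of 5 arrays and a lower class of 7, and all 3 treated obese rats were in the lower one. With that class as a covariate the test called 3 probe sets for the interaction, Inmt, Slc22a13 and 1 unnamed. The lower class alone holds 1 lean control and 1 treated lean rat, the third of each, so a fit within it gives effect sizes only. The third treated lean rat stood apart from the other arrays on the second principal component.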

How the data were processed

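Kidney total RNA (Trizol, with biotin labelling by an Enzo kit, per the labels' protocols) was read on Affymetrix Rat Genome 230 2.0 arrays. The authors deposited linear signal intensity per probe set from MAS5, per the submitters' processing notes, with no version or settings. The intensities had a trimmed mean of 500.1 on every array (2% cut at each end), so arrays were already scaled alike. Here 57 control probe sets were left out, 16 was added and log2 taken, and probe sets under the 40th percentile of the mean log2 value (7.32) were left out, leaving 18625 of 31042. Adding 16 understates the change of dim probe sets.

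Limma 3.58.1 in R 4.3.3 fitted 4 group means to the 12 arrays (8 residual degrees of freedom) with eBayes, trend and robust settings, and Benjamini-Hochberg adjusted p-values were taken over all probe sets tested. The procedure was tested on simulated data. Fold changes come from the log2(signal + 16) scale. Probe sets were named from the platform annotation where it gave 1 symbol (20826 probe sets; 436 had several and 9780 none here); of their gene IDs 20758 were found in the GRCr8 table and 0 symbols were updated. Named genes are the 24 with a symbol of smallest interaction p, 45 genes of interest (7 of them below the filter) and up to 3 genes a list by smallest p; those called in obese rats were added after their values were seen. The genes and lists were chosen with earlier results of these data known. A list takes 1 probe set a gene, that of the highest mean. The labels do not say that each array is a separate rat, although the numbers match, so p-values measure the spread between these arrays, and the number of arrays limits the precision. Alternatives changed the added constant, the filter, the scaling, the test, the spike-in class, the replicate block and the arrays included.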

Additional observations from a re-analysis of the deposited data

How the results depend on the processing

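The interaction was above the threshold for 0 probe sets, and for 1 with a 60th percentile filter, 1 with quantile normalization, 3 with cre class as covariate and 6 in the lower spike-in class alone. Leaving out 1 array gave 0 to 4, the 4 (Inmt, Fasn, Car3 and Scd) without the second lean control. The lean effect had 1 call, and 2 with the 60th percentile filter, 3 with median centring, 2 with quantile normalization, 2 with no log, 4 with the covariate and 1 to 5 with 1 array left out. The obese effect had 13, and 9 with 1 added, 11 with 64 added, 7 with no filter, 9 with median centring, 21 with quantile normalization, 2 with eBayes without trend and robust settings, 34 with the covariate and 0 to 18 with 1 array left out. The cause of these moves was not tested. Same-numbered arrays of different groups had correlations of −0.18 to 0.18 in their deviations from the group means, over 18 pairs, 4 of them over 0.1. Arrays of different number were not compared, so whether the numbers pair the arrays was not settled. In both lean groups replicates 1 and 2 were in the higher spike-in class and replicate 3 in the lower. Of the obese arrays only control replicate 1 was in the higher class. With a replicate block the interaction had 0 calls (smallest adjusted p 0.0902), the lean effect 2 and the obese effect 10.

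All 24 genes of smallest p kept the sign of their interaction under every alternative they were tested in (23, or 22 for Car3, Cryaa and Nrxn2, which fell below the 60th percentile filter), and 5 of the other 31 genes did not: Ucp1 (−0.37 with 64 added, −2204 signal units with no log), Fabp4 (−794 with no log), Rbp7 (−128 with no log, and −0.024 to 0.65 with 1 array left out, lowest without the second obese control), Cd36 (0.0089 in the lower class) and Pparg (0.58 in the lower class, and −0.25 to 0.12 with 1 array left out). Medians of 10 of 32 lists moved by more than 1 SD under at least 1 alternative. Arrays limit dim genes: a group below 115.7 has only an upper bound.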

Other observations

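The lists given here had 0 called members too. Adrenal cortex markers had a median of −0.37 over 4 measured genes of 11 (−0.18 without the second lean control), and 9 brown fat genes one of −0.25 (−0.16 without the second treated lean rat). Of these 9, Cox8b and Ucp1 had a mean below background in obese controls, so their obese effects were not fully measured. Immediate early and heat shock genes had a median of −0.18 over 24, which ran from −0.34 to 0.06 with 1 array left out. Of 43 subunits of the respiratory chain and ATP synthase 32 had an interaction below 0, with a median of −0.07, which turned to 0.04 in the lower spike-in class alone. The 32 genes of distal nephron salt and water handling, the segment where thiazolidinediones are known to act on sodium, had a median of −0.04 with 14 above 0. The thick ascending limb and medulla markers had one of 0.10 over 15 genes, and 10 podocyte markers one of −0.15. Cytochrome P450 genes had a median of 0.02 over 22 and cholesterol synthesis and uptake genes one of −0.01 over 19. Tubular injury markers had a median of −0.03 over 21 genes, with 0 at an unadjusted p under 0.05.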
